A study of Homo sapiens with 12 samples.

Results

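The 6 kallikreins described here, KLK1, KLK2, KLK3, KLK4, KLK11 and KLK15, were chosen by name from the 60106 gene rows of the count tables. They lie on chromosome 19 and span 208.9 kb of a cluster that holds 10 further kallikrein rows. The title of the study names the regulation of splicing-related genes by FOXA1 in prostate cancer cells as its subject. RNA was sequenced from 12 libraries of the established prostate cancer cell lines VCaP and PC3, with 3 libraries in each of 4 groups. Both lines came from bone metastases. VCaP cells received 40 nM of a non-targeting siRNA (the NSI group) or of an siRNA against FOXA1 (the siFOXA1 group) in DMEM, and PC3 cells received 20 nM of either siRNA in RPMI. All cells were transfected with RNAiMax and lysed after 72 hours, and no group of untransfected cells was analysed here. VCaP libraries were made with the TruSeq total RNA kit and counted by strand, while PC3 libraries were made with the TruSeq stranded mRNA kit and counted without strand. A difference between the lines therefore cannot be told apart from a difference of dose, medium, kit or counting. Nothing in the labels says whether the replicates came from separate cultures, so the p-values measure only the spread between these libraries.

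Kallikreins are secreted serine proteases made as inactive precursors. KLK3 is prostate-specific antigen, the protease that liquefies the semen clot by cutting semenogelins and the serum marker of prostate cancer, and KLK2 is its closest relative and an activator of its precursor. Both are textbook androgen-responsive genes, and FOXA1 is a pioneer factor that opens chromatin at many enhancers of prostate epithelium.

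Sequences before the RefSeq starts of KLK2 and KLK3 are shown first because these neighbouring genes are close relatives in sequence, and of the pair only KLK2 passed the test in VCaP. The RefSeq promoter table (GRCh38.p14) held 8 entries for 5 of the 6 kallikreins and none for KLK1. Each was cut to the 250 bases before the listed start, and each cut window matched GRCh37, the build of the count tables, at 1 place. The KLK2 and KLK3 windows aligned over 219 bases, of which 196 (89.5%) were identical, with an identical run of 80 bases. Both hold the word TTTATA, the reverse complement of the TATA word TATAAA, beginning at position -28 from the listed start in KLK3 and at -34 in KLK2. The stretches of 30 bases around it, with the word in capitals, lie at chr19:51358131-51358160 for KLK3 and chr19:51376649-51376678 for KLK2, both on the plus strand of GRCh37. In the annotation of the count tables the KLK2 row begins upstream of the RefSeq start, so that 190 of the 250 bases of its window, including the stretch shown, lie in an annotated exon of KLK2, against 0 bases for KLK3.
KLK3: gggaatgaaggtTTTATAgggctcctgggg
KLK2: gagaatgaaggcTTTATAgggctcctcagg

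The whole KLK3 window (chr19:51357921-51358170, plus strand, GRCh37) and the window of KLK4 (chr19:51413995-51414244, minus strand) that ends next to the first base of its row are shown because KLK4, like KLK2, passed the test in VCaP and KLK3 did not. Capitals mark TTTATA, which the KLK4 window shown does not hold. The other KLK4 window (chr19:51414652-51414901, minus strand) is not shown and holds neither TTTATA nor TATAAA. It does hold TATAAG, which differs from TATAAA only in the last letter and was not searched for.
KLK3: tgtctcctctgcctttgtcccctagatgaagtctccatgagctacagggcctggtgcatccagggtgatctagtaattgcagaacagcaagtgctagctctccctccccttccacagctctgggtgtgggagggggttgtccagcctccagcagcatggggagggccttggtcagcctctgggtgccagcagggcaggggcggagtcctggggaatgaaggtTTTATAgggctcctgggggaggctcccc
KLK4: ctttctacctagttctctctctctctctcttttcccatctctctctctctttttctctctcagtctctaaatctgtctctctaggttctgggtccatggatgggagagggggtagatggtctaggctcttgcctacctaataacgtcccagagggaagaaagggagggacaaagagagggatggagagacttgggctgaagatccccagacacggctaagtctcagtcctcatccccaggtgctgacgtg

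All motifs were searched on both strands of the 250-base windows. The FOXA words TGTTTAC and TGTTTGC were in none of the 8 kallikrein windows, and in 3.0% and 3.2% of all 35116 windows in the table. TATAAA or its reverse complement was in the windows of KLK2 and KLK3 and in 1 of the KLK15 windows, and in 10.7% of all. These matches describe letters in a short window and say nothing of binding there or at distant enhancers.

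The siRNA target was checked first. FOXA1 stood at 490 ± 47 CPM (the counts of a library scaled to a common total; SD, n = 3) in VCaP NSI and at 80.6 ± 6.18 in siFOXA1, which is 16.5% of the control level (log2 fold change -2.60, SE 0.0947, adjusted p = 1.84e-07). In PC3 the level went from 271 ± 30 to 169 ± 11.4 CPM, or 62.3% (log2 fold change -0.68, SE 0.105, adjusted p = 0.0022). The knockdown in VCaP was deeper: the difference of the effects, VCaP minus PC3, was -1.94 on the log2 scale (adjusted p = 2.98e-07).

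Library totals ran from 48187047 to 59839211 counts in VCaP and from 123140099 to 188226483 in PC3. The mitochondrial share of the counts was 3.28%, 3.29% and 3.02% in VCaP NSI and 4.04%, 4.16% and 4.69% in siFOXA1, without overlap, and its part in the VCaP results was not tested. All 6 listed luminal prostate markers, KRT8, KRT18, HOXB13 and KLK3 among them, averaged over 1 CPM in both VCaP groups, and 4 of the 6 did so in PC3, where KLK3 did not. In VCaP the sum of the 6 went from a range of 4210 to 4430 CPM in NSI to 3410 to 3880 in siFOXA1, without overlap. KRT18 (125 to 80.1 CPM on average), HOXB13 (253 to 213) and KLK3 (69.4 to 63.3) were lower in siFOXA1, and KRT8 (230 to 243) was higher. In VCaP the summed level of 4 stroma markers went from a range of 10.7 to 19.3 CPM in NSI to 1.19 to 5.4 in siFOXA1. Most of this change was LUM (10.5 to 0.667 CPM on average). COL1A1 (2.1 to 1.06) and COL1A2 (1.12 to 0.825) moved less, and DCN was close to 0 (0.0847 and 0.0756). Of the 4 mesenchymal markers, FN1 (28.3 to 15.6 CPM on average) and CDH2 (2.29 to 0.713) were lower in siFOXA1 while VIM (0.26 to 0.685) and ZEB1 (0.045 to 0.0916) were higher, and their sum, mostly FN1, went from a range of 25.4 to 37.1 CPM to one of 12.1 to 20.0. The sum of 2 measured endothelium markers went from 3.93 to 4.56 CPM to 1.69 to 2.02, nearly all of it VWF (4.3 to 1.88 on average). The 4 blood cell markers summed to at most 0.444 CPM in any VCaP library, with HBB at 0 in all 6. The part of these shifts in the results below was not tested, and fewer cells with a transcript cannot be told apart from less of it per cell in bulk RNA.

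In VCaP control cells KLK2 was by far the highest of the 6 and KLK1 and KLK11 were close to 0. On the scale of CPM per kb of exon, which allows genes to be compared, KLK2 was at 532 ± 62 (SD, n = 3), KLK4 at 78.2 ± 13.2, KLK3 at 30.3 ± 12.4 and KLK15 at 1.52 ± 0.182. KLK1 and KLK11 were at 0.0302 ± 0.0261 and 0.00901 ± 0.0113, each with at most 2 counts in a control library. No library put KLK3 above KLK4 or KLK4 above KLK2, and KLK1 and KLK11 did not differ beyond their spread. KLK2 ranked 42 of 20298 protein-coding genes per kb and took 0.148% to 0.186% of all counts in a control library. KLK4 ranked 385 and KLK3 ranked 1264. After FOXA1 siRNA the ranks were 72 for KLK2, 735 for KLK4 and 1273 for KLK3, and the order of the 4 expressed genes was the same.

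**Figure D1:**
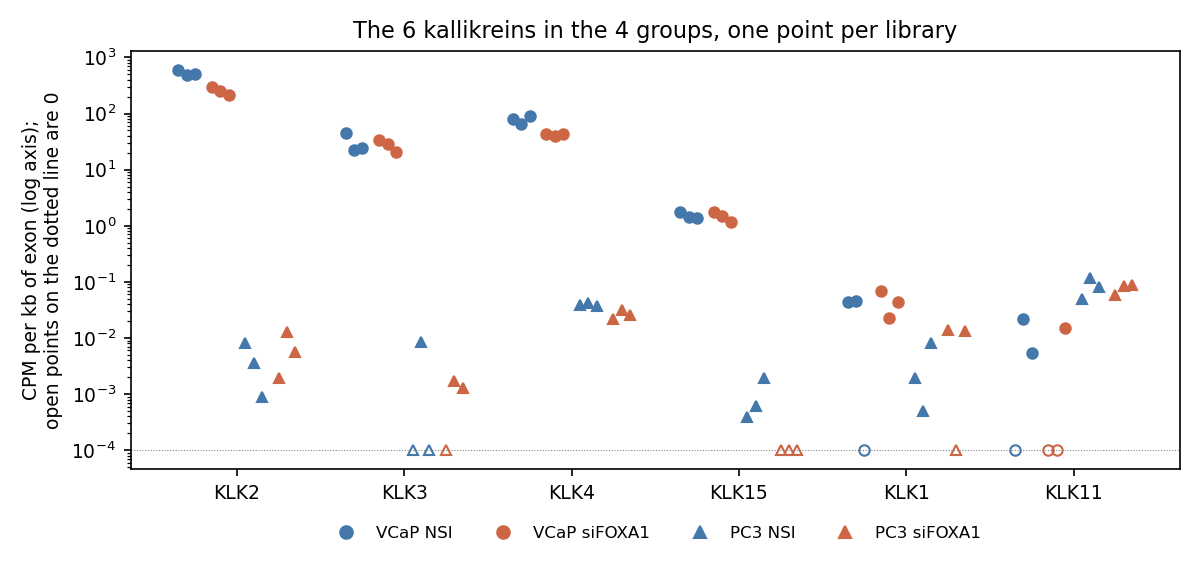
Level of each kallikrein in CPM per kb of exon on a log axis, with 1 point per library (circles, VCaP; triangles, PC3; blue, NSI; orange, siFOXA1) and open points for a count of 0. KLK2, KLK3, KLK4 and KLK15 stand far higher in VCaP than in PC3, and KLK11 is the only gene of the 6 whose PC3 points all lie above its VCaP points.

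KLK2 and KLK4 fell in VCaP after FOXA1 siRNA, to 48.2% and 53.3% of their control levels, while KLK3 and KLK15 did not pass the test. Of the 4 kallikreins with enough counts to be tested, 2 were called lower and none higher at an adjusted p under 0.05. The background of this count is high: 45.8% of the 22939 genes tested in VCaP were called, 23.3% lower and 22.5% higher. The median log2 fold change was -0.52 over the 4 kallikreins and 0.02 over all genes tested. The groups of KLK2 and of KLK4 did not overlap, as was so for 55.9% of all genes tested.

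KLK2 (ENSG00000167751.12_2, chr19:51376505-51383823, plus strand), whose protease activates the KLK3 precursor, was at 1844, 1500 and 1533 CPM in the NSI libraries and at 912, 779 and 657 in the siFOXA1 libraries. Every siFOXA1 library was below every NSI library. The log2 fold change was -1.05 (SE 0.13, adjusted p = 0.000157). The share of the library taken by KLK2 went to 0.0629% to 0.0931%. The counting split reads that map to several places, so the sequence KLK2 shares with its relatives was measured. Of the 2811 words of 50 bases in KLK2 exons, 11 (0.39%) also occur in another kallikrein, KLK3, and no word of 75 bases does. For KLK3, whose counts are far fewer, it was 11 of 2045 (0.54%), and again no word of 75 bases. Words across exon joins were not compared, and the labels do not give the read length. How far KLK2 reads are counted for KLK3 was not tested.

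KLK4 (ENSG00000167749.11_2, chr19:51409608-51413994, minus strand), a trypsin-like protease of the prostate that also matures tooth enamel, was at 107, 86.6 and 122 CPM in NSI and at 57.4, 53.1 and 57.8 in siFOXA1. Its 3 siFOXA1 libraries lay within 5 CPM of each other and below all controls. The log2 fold change was -0.91 (SE 0.112, adjusted p = 0.000154). No 50-base word of its exons occurs in another kallikrein.

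KLK3 (ENSG00000142515.14_3, chr19:51358171-51364020, plus strand) was at 102, 51.4 and 54.6 CPM in NSI and at 78.2, 65.3 and 46.4 in siFOXA1. The groups overlapped, and the first NSI library stood far above the other controls. The log2 fold change was -0.13 (SE 0.263, adjusted p = 0.711), with an error larger than those of KLK2 and KLK4. The sign of this value rests on single libraries: it was 0.24 without the first NSI library and 0.05 without the third siFOXA1 library. The same NSI library was also the highest control for KLK2, but by a smaller margin.

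**Figure D2:**
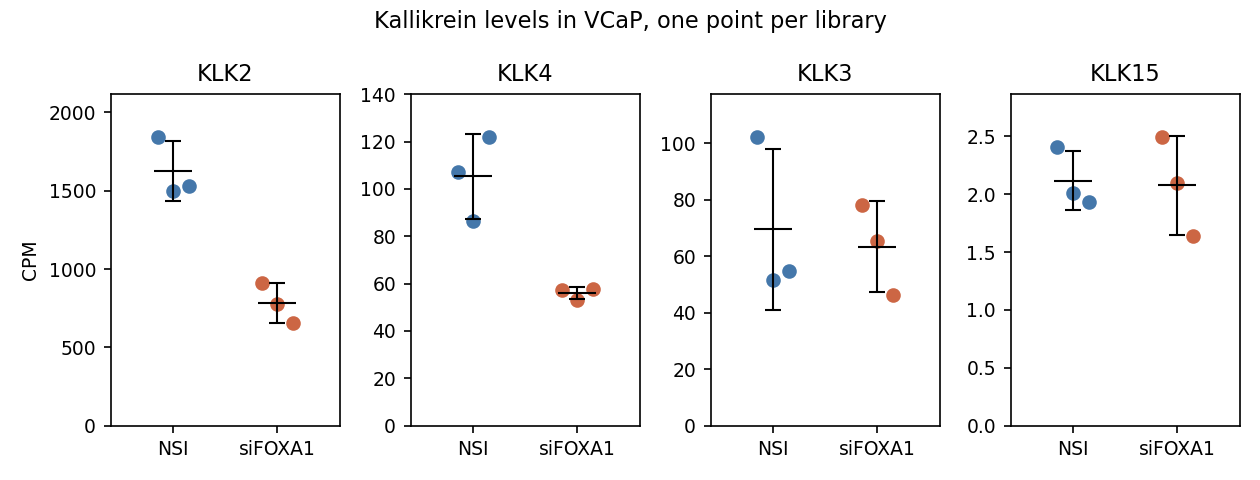
CPM in VCaP for KLK2, KLK4, KLK3 and KLK15, each on its own axis from 0, with 1 point per library and bars for the mean and SD of 3 libraries. The NSI and siFOXA1 points separate for KLK2 and KLK4 and overlap for KLK3 and KLK15.

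The ratio of KLK3 to KLK2 within a library does not depend on how libraries are scaled. Per kb, KLK3 was at 7.4%, 4.57% and 4.75% of KLK2 in the NSI libraries and at 11.4%, 11.2% and 9.42% in the siFOXA1 libraries. Each siFOXA1 library was above each NSI library. The mean log2 ratio was higher by 0.97 in siFOXA1 (SE 0.239), which is 1.96-fold, with an exact two-sided permutation p of 0.1, the smallest that 3 against 3 libraries can give.

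**Figure D3:**
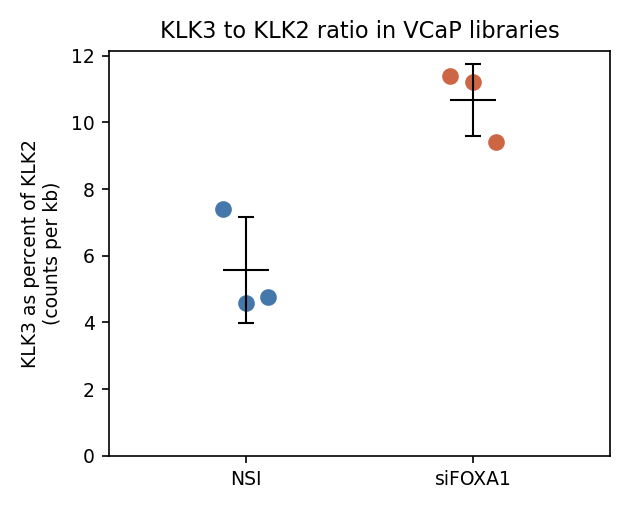
KLK3 as a percent of KLK2, both in counts per kb, in each VCaP library, with the mean and SD of 3. The siFOXA1 points lie between 9.42% and 11.4%, above the NSI points at 4.57% to 7.4%.

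KLK15 (ENSG00000174562.13_3, chr19:51328561-51340469, minus strand), another protease able to activate the KLK3 precursor, was at 2.41, 2.01 and 1.93 CPM in NSI and at 2.50, 2.10 and 1.64 in siFOXA1. The NSI values lay within the range of the siFOXA1 values. The log2 fold change was -0.02 (SE 0.176, adjusted p = 0.927), and it turned positive, at 0.02, under upper-quartile scaling. These levels rest on 86 to 125.75 estimated counts per library.

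KLK1 and KLK11 were too low in VCaP to be tested. KLK1 (ENSG00000167748.10_2, chr19:51322409-51327040, minus strand), tissue kallikrein, which releases kinins from kininogen, was counted 2, 2 and 0 times in the controls and 3, 1 and 2 times after FOXA1 siRNA. KLK11 (ENSG00000167757.13_4, chr19:51525472-51531295, minus strand), a trypsin-like protease of several epithelia and of semen, held estimated counts of 0, 1.75 and 0.5 in the controls and of 0, 0 and 1.25 after FOXA1 siRNA. A difference was not detectable at this depth, where 3 counts in a VCaP library correspond to 0.0521 to 0.0598 CPM.

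In PC3 none of the 6 reached 0.2 CPM in any library. KLK11 was the highest, at 0.0813, 0.187 and 0.133 CPM in NSI and at 0.0954, 0.135 and 0.141 in siFOXA1. The groups overlapped, and it was the only one of the 6 with enough counts to be tested (log2 fold change -0.11, SE 0.389, adjusted p = 0.849). None of the 6 was called, beside 27.7% of the 26478 genes tested in PC3 (13.9% higher and 13.9% lower). KLK4 held estimated counts of 7.75, 8 and 9.25 in the controls and of 5, 5.25 and 6 after FOXA1 siRNA, without a test. These groups did not overlap, as was so for 45.1% of the genes tested in PC3. KLK2 had at most 5 counts in a PC3 library and KLK3 at most 2.67. KLK1 had at most 2, and KLK15 was at or below 0.5 in NSI and at 0 in all 3 siFOXA1 libraries. A count of 0 allows up to 3 counts, or 0.0173 to 0.0238 CPM, in a PC3 siFOXA1 library.

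Between the control groups, KLK2, KLK3, KLK4 and KLK15 were higher in VCaP and KLK11 was higher in PC3. All 5 kallikreins that could be tested were called, 4 higher and 1 lower in VCaP. Over the 30450 genes tested between these groups, 86.9% were called (42.7% higher and 44.2% lower). Within the lines, each of the 5 had enough counts for a test only in the line where it was higher. Being testable therefore nearly fixed the call, and the count of calls is not a result about these genes. Counted over the 3 control libraries of each line, KLK2 had 259278 rounded counts in VCaP and 7 in PC3, a ratio of 108000 after allowing for library size (95% exact interval 52300 to 268000, counting error only). The ratio was 10700 (3660 to 51900) for KLK3, on 3 counts in PC3. It was 1970 (1330 to 3050) for KLK4 and 980 (175 to 38800) for KLK15, the last on 1 rounded count in PC3. KLK11 was 7.11 times higher in PC3 (2.32 to 35.4), on 62 counts against 3, with a log2 fold change of -2.76 for VCaP over PC3 (SE 0.705, adjusted p = 0.00188). Before rounding, the control sums were 5.6 for KLK2 and 0.7 for KLK15 in PC3, and 2.25 for KLK11 in VCaP. These ratios and intervals therefore depend on the rounding.

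Whether the siRNA response differed between the lines could not be settled for these genes. The difference of the effects, VCaP minus PC3, was tested for 5 of the 6, and none was called, beside 22.1% of 30450 genes. It was -1.42 (SE 0.816, adjusted p = 0.252) for KLK2 and -0.31 (SE 0.453, adjusted p = 0.719) for KLK4. These errors are several times those within VCaP, and the PC3 side rests on the few counts given above.

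Of the 10 other kallikrein rows of the cluster, 2 had enough counts to be tested in VCaP, and neither was called. KLK14 was at 0.297 ± 0.0408 CPM in NSI and 0.433 ± 0.0205 in siFOXA1 (log2 fold change 0.60, SE 0.223, adjusted p = 0.0587). The pseudogene KLKP1, which lies between KLK2 and KLK4, was at 2.65 ± 0.19 and 2.72 ± 0.397 CPM (log2 fold change 0.04, SE 0.14, adjusted p = 0.833). The genes on its sides, KLK2 and KLK4, both fell. KLK5, KLK6, KLK7, KLK8, KLK9, KLK10, KLK12 and KLK13 were each below 0.08 CPM on average in both VCaP groups.

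In PC3, 4 of the 10 were tested and 3 rose, beside 13.9% of all genes tested there that rose and 27.7% called in either direction. Marker sums moved in PC3 too. The 6 luminal markers went from 713 to 819 CPM in NSI to 617 to 650 in siFOXA1. Among them KRT18 (276 to 190 CPM on average) and HOXB13 (360 to 271) were lower in siFOXA1, and KRT8 (128 to 167) was higher. The 4 mesenchymal markers went from 944 to 1010 CPM to 1020 to 1100. VIM (748 to 820), CDH2 (43 to 57.3) and ZEB1 (25.8 to 39.6) were higher, and FN1 (157 to 153) was lower. The 4 stroma markers went from 22.9 to 27 CPM in NSI to 39.8 to 44.4 in siFOXA1, with DCN below 0.02 CPM on average in both groups. The 4 blood cell markers went from 26.3 to 29.6 CPM to 43.9 to 49.4, nearly all of it CD68, and the 3 neuroendocrine markers from 57 to 68.3 CPM to 90.6 to 105, nearly all of it ENO2. The part of these shifts in the rises was not tested. KLK5, a skin protease that starts the desquamation cascade, rose from 0.251 ± 0.0437 to 1.01 ± 0.144 CPM (log2 fold change 2.00, SE 0.213, adjusted p = 0.000348). KLK10 rose from 0.2 ± 0.0823 to 0.77 ± 0.126 CPM (1.94, SE 0.299, adjusted p = 0.00226), and KLK6 from 0.641 ± 0.0631 to 1.37 ± 0.169 CPM (1.09, SE 0.173, adjusted p = 0.00252). KLK14 was at 0.568 ± 0.125 and 0.502 ± 0.0983 CPM (-0.18, SE 0.243, adjusted p = 0.621). These counts ignore strand, so reads from exon stretches that an antisense gene shares cannot be assigned to either gene. CTB-147C22.8 overlaps 12.9% of the KLK5 exons and 20.3% of those of KLK6, and CTC-518B2.12 overlaps 7.15% of those of KLK10. These overlaps take in most of the 826 exon bases of CTB-147C22.8 and all 240 of CTC-518B2.12. The antisense rows are therefore not measured separately from the kallikrein rows. Both rose as well, by log2 fold changes of 0.88 (adjusted p = 0.0344) and 1.42 (adjusted p = 0.0114), and the source of the shared reads was not tested. Summed over 3 libraries, CTB-147C22.8 went from 135.74 to 250.83 estimated counts over all its exons, while KLK5 went from 118.5 to 475 and KLK6 from 302.4 to 634.33. CTC-518B2.12 went from 42.17 to 114.91 and KLK10 from 90.67 to 352.91. For none of these genes was the difference between the lines called. Summed over 3 libraries, VCaP NSI and siFOXA1 held 1.37 and 4.5 estimated counts of KLK5, 4.87 and 11.4 of KLK6, and 4.95 and 4.5 of KLK10. The antisense rows held at most 1 in either VCaP group. With so few counts in VCaP, that test could not settle whether these rises differed between the lines.

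Of the 32 other rows in and within 100 kb of the cluster, 11 were tested in VCaP, of which 8 were lower and 1 higher, with a median log2 fold change of -0.80. Over all genes tested, 23.3% were lower and 22.5% higher, with a median of 0.02. Of the 8, 3 are small nucleolar RNAs (SNORD88A, SNORD88B and SNORD88C) within the span of CTD-2568A17.3, which is also among the 8, and so are not separate neighbours. CTD-2568A17.8, also among the 8 (-0.74, adjusted p = 0.0246), overlaps the span of CTD-2568A17.1 on the same strand, so these are not separate either. Only AC011523.2 of the 8 lies inside the cluster, and the others lie beyond KLK1. SNORD88A, SNORD88C, CTD-2568A17.8 and AC011523.2 fell outside the naming rule and were named after their values were seen. CTD-2568A17.3 (C19orf48P in the gene name table, chr19:51300962-51307974, minus strand) had the deepest fall, from 595 ± 79 to 211 ± 5.88 CPM (log2 fold change -1.5, SE 0.0992, adjusted p = 3.49e-06). It lies beyond KLK1, on the side away from KLK2. It also fell in PC3, from 161 ± 26.6 to 90.5 ± 12.9 CPM (-0.83, SE 0.143, adjusted p = 0.00378). CTD-2568A17.1 fell from 4.72 ± 0.737 to 2.20 ± 0.639 CPM in VCaP (-1.11, SE 0.205, adjusted p = 0.00186), and SNORD88B, a small nucleolar RNA within the span of CTD-2568A17.3, fell from 5.49 ± 0.683 to 2.81 ± 0.37 (-0.97, SE 0.138, adjusted p = 0.000393). CTU1, a tRNA thiolation enzyme beyond the far end of the cluster, rose from 2.77 ± 0.286 to 4.02 ± 0.661 CPM (0.53, SE 0.147, adjusted p = 0.015). Its call was lost without the second NSI library (adjusted p = 0.0538) and in a fit over all 12 libraries (adjusted p = 0.153).

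**Figure D4:**
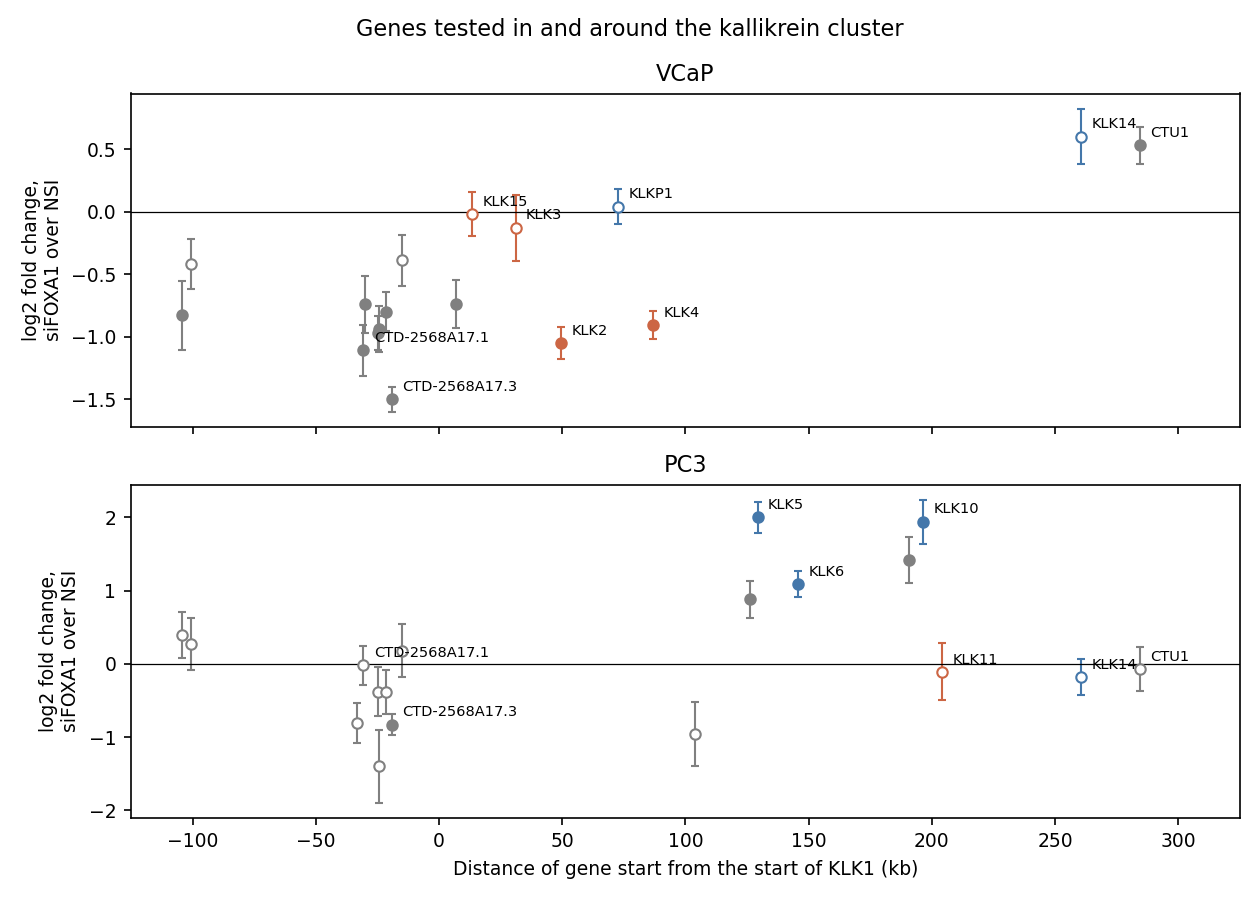
Log2 fold change of siFOXA1 over NSI with its standard error, against the distance of each gene's start from the start of KLK1 in kb, for the genes tested in VCaP (top) and PC3 (bottom). Filled points passed an adjusted p of 0.05; orange marks the 6 kallikreins of the report, blue the other kallikreins and grey their neighbours. In VCaP the called kallikreins KLK2 and KLK4 lie among uncalled KLK15, KLK3 and KLKP1, and in PC3 the called kallikreins are KLK5, KLK6 and KLK10.

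Of 11 listed kallikrein inhibitors, 6 were tested in VCaP, 2 rose and 2 fell, with a median of 0.09. This and the counts of the lists that follow stand beside 22.5% higher and 23.3% lower (45.8% called) and a median of 0.02 over all genes tested. SERPINA1, the antitrypsin serpin, rose from 1.00 ± 0.196 to 3.52 ± 0.626 CPM (log2 fold change 1.80, SE 0.194), and SPINT2, a Kunitz inhibitor of membrane serine proteases, rose by a log2 fold change of 0.31. SPINK1 fell from 0.962 ± 0.0707 to 0.497 ± 0.0678 CPM (-0.95, SE 0.184), and SERPINB6 showed -0.72 (SE 0.0816). Of 13 listed substrates and receptors, 7 were tested, 2 rose and 4 fell, with a median of -0.49. IGFBP3, a binding protein of insulin-like growth factors that KLK3 can cut, rose from 145 ± 30.4 to 1566 ± 107 CPM (3.43, SE 0.15, adjusted p = 3.88e-07). SEMG2, a semenogelin and thus a semen clot substrate of KLK3, rose from 0.093 ± 0.0324 to 0.288 ± 0.0786 CPM (1.59, SE 0.375). It had 15 counts in the control group and 44 in siFOXA1, and passed the count filter through siFOXA1 alone. Its call as a rise is therefore not independent of the filter. F2RL1, the protease-activated receptor that KLK2 and KLK4 can cleave, fell from 32.3 ± 1.8 to 16.2 ± 2.21 CPM (-1, SE 0.0971). FN1 (fibronectin) and PLAUR (the urokinase receptor) fell with log2 fold changes of -0.87 and -0.73.

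Other secretory genes of the prostate also fell in VCaP, several of them with larger fold changes than KLK2 and KLK4, a difference that was not tested. Of 16 such genes listed, 12 were tested, 10 fell and none rose, beside 23.3% of all genes that fell, with a median log2 fold change of -1.33. The neuropeptide NPY fell from 262 ± 41.6 to 16.0 ± 4.94 CPM (-4.04, SE 0.221), the semen clotting enzyme TGM4 from 17.9 ± 4.48 to 1.28 ± 0.492 (-3.81, SE 0.259), and the transporter SLC45A3 from 145 ± 23.5 to 20.0 ± 1.39 (-2.86, SE 0.122). All 30 listed androgen response genes were tested, of which 10 rose and 16 fell, with a median of -0.22. TRGC1 (-3.98) and SLC45A3 fell the most in that list, and ADAM7 (2.02), the steroid receptor co-chaperone FKBP5 (1.49) and PTPRM (1.42) rose the most. FKBP5 went from 48.7 ± 2.53 to 137 ± 7.17 CPM.

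Of 22 listed transcription factors and cofactors known at kallikrein enhancers, 21 were tested, 5 rose and 8 fell, with a median of -0.09. This stands beside 22.5% and 23.3% of all genes. The 8 include FOXA1, the siRNA target, whose fall was set by the experiment. SPDEF, an ETS factor of prostate epithelium that can drive KLK3, fell from 178 ± 17.6 to 21.2 ± 2.93 CPM (log2 fold change -3.07, SE 0.117, adjusted p = 2.22e-07). GATA3 rose from 0.103 ± 0.0634 to 0.478 ± 0.0902 CPM (2.14, SE 0.358), on 16.5 estimated counts in the control group and 73 in siFOXA1. It passed the count filter through siFOXA1 alone, so its call as a rise is not independent of the filter. The corepressor NCOR1 rose with a log2 fold change of 0.46, and NR3C1, the glucocorticoid receptor, with 0.30. The NR3C1 call was lost without the first NSI library (adjusted p = 0.0523), without the first siFOXA1 library (adjusted p = 0.0547) and in a fit over all 12 libraries (adjusted p = 0.0549).

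**Figure D5:**
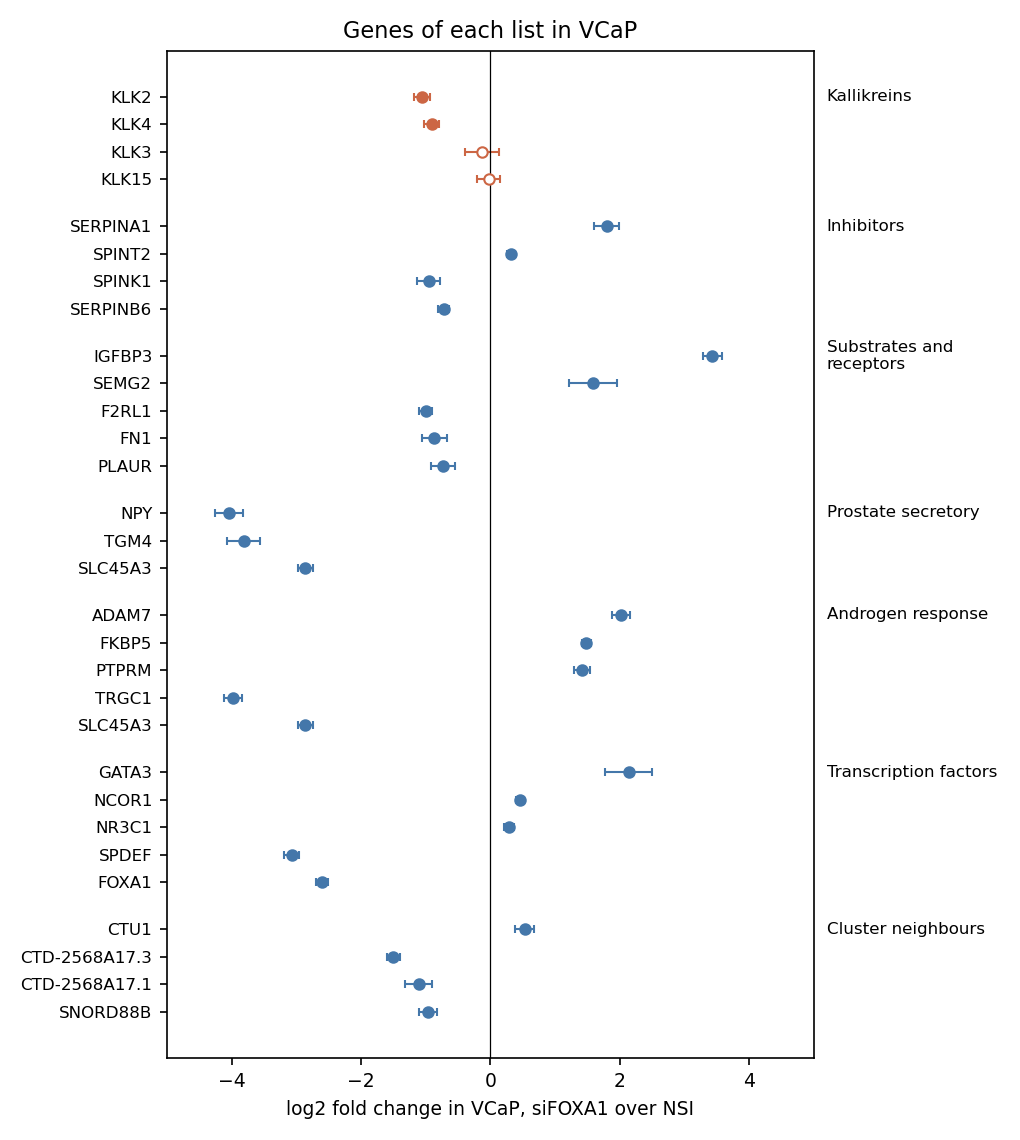
Log2 fold change of siFOXA1 over NSI in VCaP with its standard error for the 4 tested kallikreins and for called genes among the largest rises and falls of each list; filled points passed an adjusted p of 0.05. KLK2 at -1.05 and KLK4 at -0.91 lie nearer to 0 than NPY, TGM4, SLC45A3 and SPDEF, which lie between -4.04 and -2.86. The latter genes were plotted because they had the largest falls of their lists, so their distance from 0 reflects that choice.

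The genes whose pattern was most like each kallikrein were ranked by the Pearson r of log2 CPM over the 6 VCaP libraries, among 11798 genes. The 6 points fall into the 2 siRNA groups and share library scaling, so a gene that falls with the siRNA is like any other such gene. HAUS5, CD109, CCNE2, TMSB10 and SLC25A17 were nearest to KLK2, with r from 0.997 to 0.998, and each fell (log2 fold changes from -1.42 for CD109 to -0.43 for SLC25A17). AC009133.24, MCTS1, SYNGR2, HADH and HIST3H2A were nearest to KLK4 (r 0.998 to 0.999), with log2 fold changes from -0.65 for HIST3H2A to -0.27 for MCTS1. NEDD4, ARFGAP1, MAN2B2, MEGF6 and SNURF were nearest to KLK3 (r 0.972 to 0.987), and none of them passed the test, with log2 fold changes between -0.08 and 0.01. Among the kallikreins, r was 0.91 between KLK2 and KLK4, 0.39 between KLK2 and KLK3 and 0.16 between KLK3 and KLK4.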

How the data were processed

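Per the file headers, the authors deposited estimated counts per gene (expected counts, not normalized), made with featureCounts 2.0.0 on the GENCODE 28 basic annotation lifted to GRCh37. Fragments that mapped to several places or genes were counted as fractions, so reads of related kallikreins can be shared between rows. Alignment was with STAR 2.7.3a, per the submitters' processing notes. Counts were rounded to whole numbers and each line was fitted alone with edgeR 4.0.16 (R 4.3.3): TMM scaling, filterByExpr, and a two-sided quasi-likelihood test with Benjamini-Hochberg adjustment over all genes tested, called at an adjusted p under 0.05. Differences between lines used 1 fit of all 12 libraries. CPM were computed from the unrounded counts and TMM factors. The script was tested on simulated data. Alternatives were RLE, upper-quartile and no scaling factors, DESeq2 1.42.0, no filter, a replicate block, a fit over all 12 libraries and leaving out each library. In PC3 same-numbered libraries deviated together (r 0.66, 0.72 and 0.30), but those numbered 3 did not correlate best with their own number. The numbers there may pair the samples, which was not settled. The PC3 p-values and shares of genes called given above come from the fit without a replicate block. The kallikreins and all lists were chosen with earlier results of these data known. Named genes were the 6 kallikreins, FOXA1, the other kallikreins, the 3 largest called rises and falls in VCaP per list and among neighbours, and the 5 genes most like each kallikrein of at least 5 CPM. The antisense rows CTB-147C22.8 and CTC-518B2.12 were named for their overlap. Counting intervals cover counting error only and treat rounded fractional counts as whole reads. Some items that these rules name are not reported here.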

Additional observations from a re-analysis of the deposited data

Results flagged for a closer look

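Effects that differed between the lines, by the interaction test of the 12-library edgeR fit (VCaP effect minus PC3 effect, log2), are given here. FOXA1 differed by -1.94 (adjusted p = 2.98e-07), with the deeper knockdown in VCaP. CTD-2568A17.3 differed by -0.68 (adjusted p = 0.0144), falling in both lines and deeper in VCaP. CTD-2568A17.1 differed by -1.09 (adjusted p = 0.0305). This call was lost in 6 of 18 alternatives, when the first PC3 NSI, the first PC3 siFOXA1, the first or second VCaP NSI, the second VCaP siFOXA1 or the third VCaP siFOXA1 library was left out (adjusted p from 0.0606 to 0.0778; range over all alternatives 0.00849 to 0.0778). It fell in VCaP and was at 0.314 ± 0.0571 and 0.312 ± 0.0702 CPM in PC3.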

How the results depend on the processing

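KLK2 (-1.18 to -0.94) and KLK4 (-1.04 to -0.79) stayed lower and called in VCaP in all 13 alternatives, and no other kallikrein of the 6 was called there. Without any 1 of the PC3 NSI libraries KLK11 was not tested between the lines, which left 4 calls. The number of PC3 genes called went from 7344 to 11333 with the replicate block, and to between 3963 (without the first siFOXA1 library) and 7628 with a library left out; it was 4738 without the third NSI library. The block changed no call of the 6. In VCaP same-numbered libraries did not all deviate together (r 0.18, -0.05 and 0.41), and 1 of 3 correlated best with its own number. No paired analysis was possible between the control groups because line and block coincide. Calls that were higher in PC3 went from 50% to 59.4% under upper-quartile scaling and to 64.3% without scaling factors. Upper-quartile factors moved the median between the lines to 0.271.

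Signs turned for uncalled genes, and the cause was not tested. In VCaP with a library left out, log2 fold changes ran from -0.32 to 0.24 for KLK3, -0.18 to 0.12 for KLK15, -0.0727 to 0.144 for KLKP1, -0.163 to 0.0436 for NEDD4, -0.0402 to 0.0247 for ARFGAP1, -0.0842 to 0.0411 for MAN2B2, -0.0645 to 0.124 for MEGF6 and -0.154 to 0.0508 for SNURF. In PC3 they ran from -0.35 to 0.23 for KLK11, -0.276 to 0.0568 for KLK14 and -0.13 to 0.16 for CTD-2568A17.1. The differences between lines ran from -2.32 to 0.88 for KLK3 and -0.0305 to 1.76 for KLK15. Upper-quartile factors gave 0.0247 for KLK15, 0.0387 for ARFGAP1 and 0.0263 for MAN2B2, and 0.0361 for CTD-2568A17.1 in PC3, which was 0.0661 with library size alone. The fit over all 12 libraries gave 0.0036, 0.0174, 0.0048 and 0.0133 for these 4. KLK14 in VCaP was called under upper-quartile factors only (adjusted p = 0.0423). The MCTS1 call (adjusted p = 0.0284) was lost in 8 of 13 alternatives. At these depths KLK1 and KLK11 in VCaP, and KLK1, KLK2, KLK3, KLK4 and KLK15 in PC3, could not be tested.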
